A study of Mus musculus with 16 samples.

Results

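Histone genes were followed through the last steps of mouse oocyte growth and meiosis, from the linker histone of the oocyte, H1foo, to the core histones and their variants. Members were the entries of the expression table whose gene name begins with Hist1h, Hist2h, Hist3h, Hist4h, H2af, H3f3 or H1f, together with Slbp and Npm2, and 69 of 28618 entries met this rule. By name, 48 of them were replication-dependent histone genes, 13 were histone variants, 3 were testis variants, 3 were pseudogenes and 2 were the partners Slbp and Npm2. Of the 13 variants, H3f3c and H2afy3 are annotated as processed pseudogenes in GENCODE M21 and were kept as variants by name.

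RNA was sequenced from pools of 5 oocytes per sample, according to the labels, while the study's methods give a larger number, of embryos, and cDNA was made by Smart-seq2 from oligo-dT primers. There were 4 groups with 4 biological replicates in each, 16 libraries in all. Wildtype (WT) females and females with the genotype Zp3-Cre; Psma7 flox/flox (Psma7 cKO), in which Cre is driven by a promoter of growing oocytes, were used at 3 to 4 weeks of age. Psma7 encodes a subunit of the outer ring of the 20S proteasome. Oocytes at the germinal vesicle (GV) stage, arrested in prophase of meiosis I, were collected 44 h after 5 IU of pregnant mare serum gonadotropin (PMSG). Eggs at metaphase II (MII) came from females that received the same PMSG dose and, 44 h later, human chorionic gonadotropin (hCG). They were taken from the oviduct 14 to 16 h after hCG and treated with 0.3% hyaluronidase, which loosens the surrounding cumulus cells. The study reports that some ovulated cKO oocytes stayed at the GV stage or were arrested in meiosis I. Whether such cells were in the pools labelled cKO MII is not given. Stage make-up and genotype therefore cannot be told apart in the egg comparisons. The labels do not say whether the pools of a group came from separate females, so the p-values measure the spread between these pools.

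Each nucleosome wraps DNA around pairs of the core histones H2A, H2B, H3 and H4, and a linker histone binds where the DNA enters and leaves. Replication-dependent histone genes lie in clusters and serve cells that copy their DNA, and their mRNAs normally end in a stem-loop bound by SLBP in place of a poly(A) tail. Variant histone genes give polyadenylated mRNAs outside of S phase, and an oocyte, which does not replicate its DNA, stores both proteins and mRNAs for the embryo. Because the cDNA was primed on poly(A), mRNAs that end at the stem-loop are poorly captured, and a low value for a replication-dependent gene here is not a measure of all of its mRNA.

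Psma7 was checked first. Its FPKM (fragments per kilobase of transcript, scaled to library size) was 154, 142, 201 and 164 in the 4 WT GV libraries and 14.6, 14.7, 11.1 and 17.98 in the cKO GV libraries. Eggs had 119, 116, 97.7 and 172 in WT and 13.6, 50.3, 35.0 and 59.9 in cKO. Every cKO library lay below every WT library of its stage, and the cKO eggs were the most uneven group. Depth, read from the steps between the lowest FPKM values, was 10.52 to 15.65 M fragments per library, so 1 fragment on a transcript of 500 bases is worth 0.128 to 0.190 FPKM. Values are shares of a library: ERCC RNA was added at lysis, but 0 of the entries are ERCC transcripts, so amounts per oocyte are not analysed here.

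All 12 oocyte markers, among them Zp3, Gdf9 and Oosp1, reached a mean of 1 FPKM in a group, and their summed level was 14190 ± 128 FPKM in WT GV oocytes, 14450 ± 330.4 in cKO GV oocytes, 10060 ± 998 in WT eggs and 11540 ± 773 in cKO eggs (SD, n = 4). Oosp1 was the most abundant of them in eggs. Zp3, which encodes a protein of the egg coat and falls in maturation, was at 781, 722, 1314 and 974 FPKM in cKO eggs and at 407, 487, 411 and 321 in WT eggs, so this oocyte mRNA too was higher in every cKO egg library (limma adjusted p = 0.0203). Of the 12 oocyte markers limma called 2 higher in cKO eggs, Zp3 and Figla, the latter at 1.82, 2.08, 1.14 and 1.36 FPKM in WT eggs and 4.03, 2.68, 7.28 and 5.86 in cKO eggs (log2 fold change 1.57, adjusted p = 0.0311), and 0 lower, where 6.53% of all entries were higher and 1.49% lower. At an unadjusted p under 0.05 there were 4 higher and 0 lower, against 20.6% and 8.80% of all entries. Both called markers also had a positive interaction (adjusted p = 0.0235 and 0.0425 in limma), as 1.07% of all entries did. The egg call of Zp3 was lost without WT MII replicate 1, 3 or 4 (limma adjusted p = 0.0701, 0.0576 and 0.0570) and its interaction without cKO GV replicate 3 (0.0513). The egg call of Figla was lost without any 1 of the WT MII replicates or without cKO MII replicate 1 or 4, at up to 0.0827 in limma. Its interaction held without WT GV replicate 2, WT MII replicate 2, cKO MII replicate 1 or cKO MII replicate 2 and was lost without each of the other libraries, at up to 0.0879, and with 1 FPKM added or no filter (0.0662 and 0.0641). The part of these oocyte markers in the egg results was not tested. Of 17 cumulus and granulosa cell markers in the table, 14 were below 1 FPKM in every library, including Foxl2, Fshr, Amhr2 and Inha, and the summed level rested mainly on Cyp19a1. That sum was 15.2, 16.8, 14.4 and 16.0 FPKM in WT GV libraries and 22.2, 20.8, 22.2 and 17.7 in WT eggs, against 21.2, 17.3, 18.3 and 19.8 in cKO GV libraries and 22.3, 21.5, 20.3 and 21.4 in cKO eggs. The follicle cell sum was thus higher in WT eggs than in WT GV oocytes and higher in cKO than in WT GV oocytes, without overlap, while the genotypes overlapped in eggs. Members of the list moved in both directions. From WT GV oocytes to WT eggs Cyp19a1 rose from 8.11 ± 1.43 to 13.5 ± 0.659 FPKM and Kitl from 3.86 ± 0.497 to 5.87 ± 1.17 (limma adjusted p = 0.000372 and 0.00769). The means of Cyp11a1 were 1.48 and 0.423 FPKM, those of Fshr 0.482 and 0.0232, those of Inha 0.146 and 0.0105 and those of Gja1 0.210 and 0.0195, and Cyp11a1 fell in cKO maturation (limma adjusted p = 0.000308). The part of these cells in the results was not tested, and fewer such cells and less RNA per cell cannot be told apart in pooled RNA. The blood markers Hba-a1 and Ptprc were below 1 FPKM in every library. Mki67, a gene of dividing cells, had means of 11.7, 11.2, 16.9 and 14.8 FPKM in WT GV, cKO GV, WT MII and cKO MII.

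Libraries of 1 group correlated across entries at r = 0.974 to 0.989 in WT GV, 0.981 to 0.989 in cKO GV and 0.987 to 0.992 in WT eggs. The range in cKO eggs was 0.965 to 0.987. Among cKO eggs, replicate 3 had the most entries at 1 FPKM or more, 10013 against 9666, 9387 and 9526 in replicates 1, 2 and 4, and counts that turn on it are given with and without it.

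Variant genes carried most of the histone signal. Their summed FPKM was 2729 ± 159 in WT GV oocytes, 2703 ± 125 in cKO GV oocytes, 5397 ± 123 in WT eggs and 4991 ± 435 in cKO eggs (SD, n = 4). The 48 replication-dependent genes summed to 89.5 ± 6.01, 99.4 ± 15.8, 70.4 ± 8.21 and 103 ± 8.76 FPKM in the same order. The sum of the variants was therefore 30.6 ± 2.18 times that of the replication-dependent genes in WT GV oocytes, 27.6 ± 3.53 times in cKO GV oocytes, 77.3 ± 6.96 times in WT eggs and 49.0 ± 6.12 times in cKO eggs. H1foo carried much of this: without it the other 12 variants summed to 972 ± 76.97 FPKM in WT GV oocytes, 960.4 ± 97.6 in cKO GV oocytes, 1939 ± 61.5 in WT eggs and 1895 ± 86.2 in cKO eggs. Per library, the replication-dependent sum was 66.1, 82.7, 65.6 and 67.2 FPKM in WT eggs and 107, 101, 111 and 91.1 in cKO eggs. These egg groups did not overlap, whereas the GV groups did, at 94.4, 81.9, 94.3 and 87.5 FPKM in WT and 115, 82.0, 90.2 and 110 in cKO. No test was made on these sums.

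**Figure D1:**
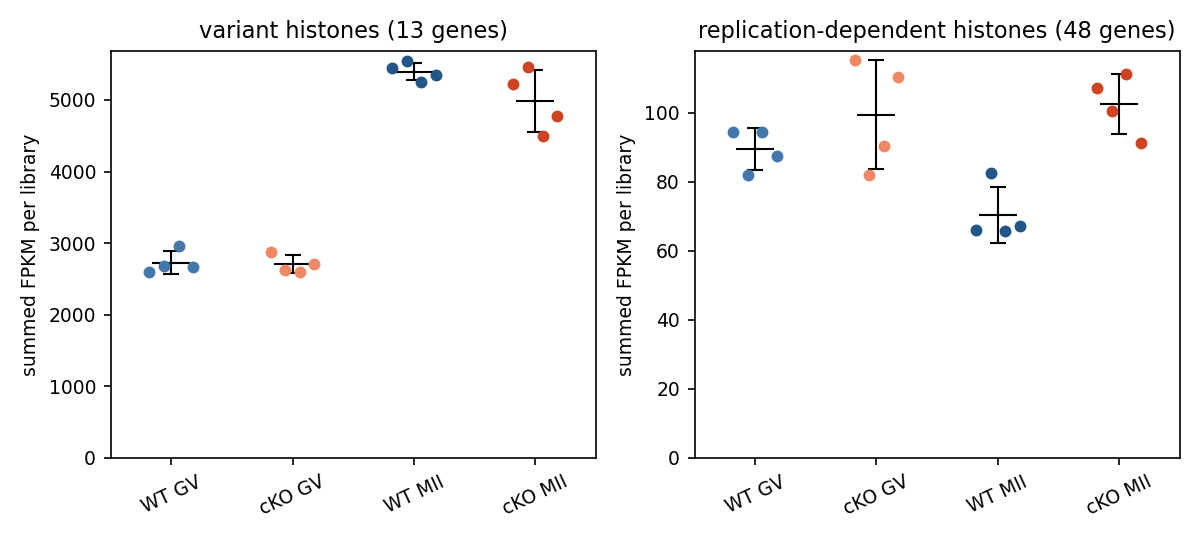
Summed FPKM per library (y axis, starting at 0) of the 13 variant and the 48 replication-dependent histone genes in the 4 groups, with 1 point per library and bars for the group mean ± SD. The variant sum was 2729 FPKM in WT GV oocytes and 5397 in WT eggs, and the replication-dependent sum was 70.4 in WT eggs and 103 in cKO eggs.

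Within the classes the signal was uneven. Only 17 of 48 replication-dependent genes reached a mean of 1 FPKM in any group and 3 reached 10 FPKM, while 29 stayed below 1 FPKM in every library. Of the 13 variants, 11 reached 1 FPKM and 8 reached 10 FPKM. By histone type, the replication-dependent H1 genes summed to 22.9 ± 2.96 FPKM in WT GV oocytes and 35.0 ± 4.89 in WT eggs, and the H2A genes to 2.35 ± 0.875 and 1.502 ± 0.436. The H2B genes summed to 27.9 ± 2.11 and 13.1 ± 1.33, the H3 genes to 16.1 ± 1.79 and 12.3 ± 1.21, and the H4 genes to 20.3 ± 3.25 and 8.47 ± 2.24. In cKO eggs the same sums were 44.9 ± 3.08 for H1, 1.66 ± 0.620 for H2A, 25.8 ± 4.09 for H2B, 16.4 ± 2.03 for H3 and 13.7 ± 2.199 for H4. For histone H3, H3f3a and H3f3b together were 50.2 ± 3.88 times the replication-dependent H3 genes in WT GV oocytes and 151 ± 11.8 times in WT eggs, on the FPKM scale, which is per length. In cKO these ratios were 42.4 ± 7.5 in GV oocytes and 109 ± 13.4 in eggs.

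From the GV oocyte to the WT egg, the linker histone H1foo, the H3.3 genes and Slbp took a larger share of the library. H2afx, H2afv and Npm2 took a smaller one. The change was tested with limma across all entries averaging 1 FPKM or more, on log2 of FPKM with values below 1 set to 1, at a Benjamini-Hochberg adjusted p under 0.05. Of the 69 members, 31 were tested: 9 rose, where 26.1% of all 10475 tested entries rose, and 15 fell, where 52.4% of all entries fell. The median log2 fold change was -0.58 over these members and -0.44 over all tested entries. By class, 4 of 11 tested variants rose, the annotated pseudogene H3f3c among them, and 6 fell, with a median of -0.66. Of 14 tested replication-dependent genes 1 rose, where 26.1% of all entries did, and 8 fell, where 52.4% did, with a median of -0.67. Among these falls, Hist1h4a, Hist1h4i, Hist1h2bk and Hist1h2ac averaged 0.444, 0.0895, 0.815 and 0.860 FPKM in WT eggs. All but Hist1h4a are named after their values were seen. They and the variants H2afy and H2afy2 passed the filter only through the GV libraries, which favoured a fall. A difference between the classes was not tested.

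In cKO the same change was read from the cKO libraries alone, which share none with the WT fit. Of 30 members tested, 10 rose, where 23% of all 10748 entries rose, and 14 fell, where 51% of all entries fell. Leaving out cKO GV replicate 1 brought the falls to 9 of 31, where 5237 of 10629 entries fell. The medians were -0.50 over members and -0.42 over all entries. Variants again gave 4 rises and 6 falls among 11, and replication-dependent genes 1 rise and 7 falls among 13. Among these falls, Hist1h4i, Hist1h2bk and Hist1h3e, named after their values were seen, averaged 0.637, 0.786 and 0.453 FPKM in cKO eggs. They and the variant H2afy passed the filter only through the GV libraries, which favoured a fall.

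In GV oocytes, before maturation, few entries of any kind were called between genotypes. With limma, 0 of 31 tested members were higher in cKO, where 0.0994% of 11062 entries were, and 0 were lower, where 0.0181% were. At an unadjusted p under 0.05, 3 members were higher and 0 were lower. They are named here after their values were seen: Hist1h4i, H2afj and Hist1h3e, with log2 fold changes of 0.68, 0.45 and 0.64 and adjusted p of 0.222, 0.276 and 0.415 in limma. Over all 11062 entries, 7.62% were higher and 3.07% lower at that level. Hist1h4i passed, with an adjusted p of 0.0346, when all 16 libraries were fitted together. The median log2 fold change was 0.08 over members and 0.04 over all entries.

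In eggs, 25 members were tested between genotypes, with the limit on the stage of cKO eggs given above. With limma, 4 were higher in cKO, where 6.53% of 9492 entries were higher, and 1 was lower, where 1.49% were lower. The higher members were H2afx, Hist1h2bc, Hist1h4h and Hist3h2ba, and the lower one was Slbp. The median log2 fold change was 0.19 over members and 0.07 over all entries. Calls over all entries turned on single libraries, those of the members among them. Without WT MII replicate 1, 3 or 4, 0 members were called higher, where 12, 3 and 31 entries in all were, against 620 with every library. Without WT MII replicate 2, cKO MII replicate 1 or cKO MII replicate 3, 2 members were, where 109, 166 and 287 entries were. Without cKO MII replicate 2 it was 4 members and 1024 entries. The log2 fold change of H2afx was 1.18, 1.27 and 1.12 without WT MII replicate 1, 3 or 4. The lower count was 0 without any 1 of the egg libraries except cKO MII replicate 2. Over all entries, 0, 5, 0 and 8 were lower without WT MII replicate 1, 2, 3 or 4. Without cKO MII replicate 1, 3 or 4, 31, 30 and 58 entries were lower, against 141 with every library. At an unadjusted p under 0.05, 9 members were higher, where 20.6% of entries were, and 2 were lower, where 8.80% were.

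Whether the change from GV to MII differed between genotypes was tested itself, on all 16 libraries. Of 31 members, 2 had a positive interaction, H2afx and Hist1h2bc, where 1.07% of 10615 entries did, and 0 had a negative one, where 0.188% did. At an unadjusted p under 0.05 the counts were 7 and 1, where 12.7% and 5.03% of all entries were. The median was 0.17 over members and 0.03 over all entries. Without WT GV replicate 1 the interaction gave 0 positive calls and 1 negative call among members, where 53 and 19 entries in all had them, against 114 and 20 with every library. The positive count was also 0 without WT GV replicate 4, cKO GV replicate 2 or 3, or WT MII replicate 1 or 4, where 38, 38, 37, 42 and 41 entries in all were positive. Without cKO MII replicate 2 it was 3, where 605 entries were. It was 1 without WT GV replicate 2 or 3, cKO GV replicate 1 or 4, WT MII replicate 2 or 3, or cKO MII replicate 1 or 3, where 42 to 157 entries were.

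**Figure D2:**
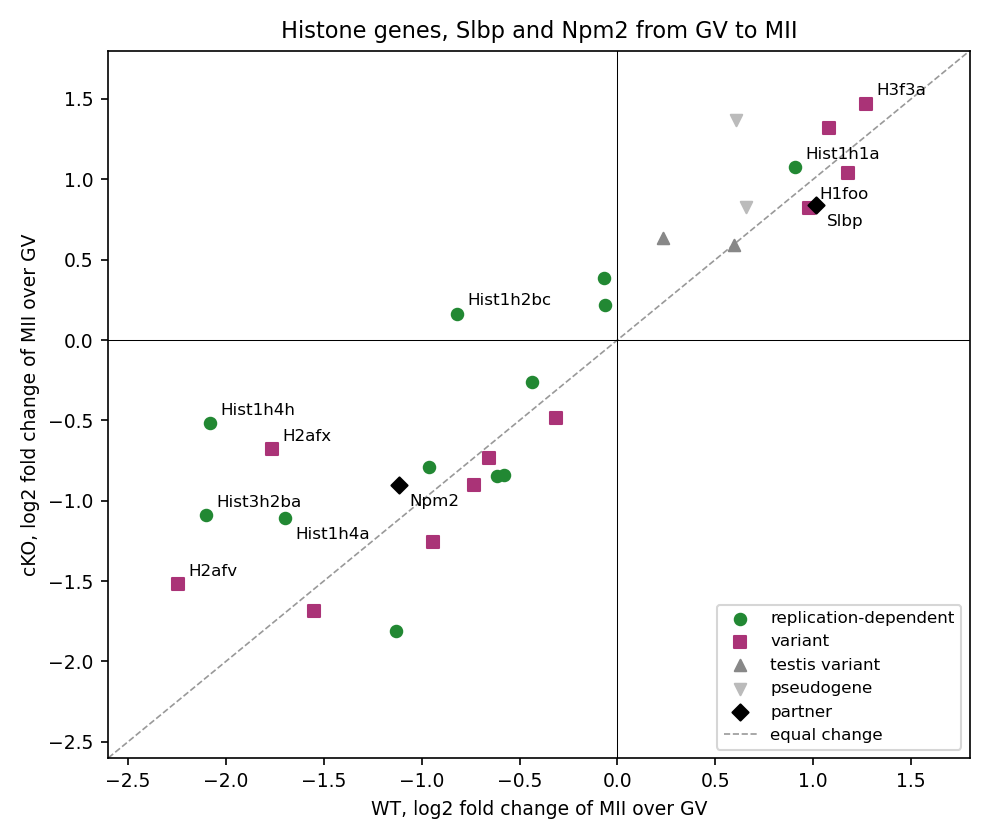
Log2 fold change of MII over GV for the 29 members tested in both genotypes, in WT on the x axis and in cKO on the y axis, with the shape and colour of a point giving its class and the dashed line marking equal change. H1foo, H3f3a and Slbp lie at the upper right, with rises in both genotypes, while H2afx, at -1.77 in WT and -0.68 in cKO, lies above the line.

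H1foo, the linker histone made by oocytes, was the most abundant member. Its FPKM was 1638, 1777, 1881 and 1730 in WT GV libraries and 1794, 1742, 1721 and 1713 in cKO GV libraries. Egg libraries had 3479, 3591, 3405 and 3359 in WT and 3297, 3463, 2681 and 2944 in cKO. All 8 egg libraries were above all GV libraries, the GV genotypes overlapped, and cKO egg replicates 3 and 4 were the lowest eggs. H1foo rose in maturation by a log2 fold change of 0.98 ± 0.08 (SE; limma adjusted p = 5.85e-07) in WT and 0.82 ± 0.10 (adjusted p = 5.26e-05) in cKO. Between genotypes in eggs the log2 fold change was -0.17, with a 95% interval of -0.37 to 0.04 (limma adjusted p = 0.250).

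H1f0, a replacement linker histone best known from differentiated cells, was present at 19.1, 24.9, 17.9 and 18.2 FPKM in WT GV oocytes and 11.9, 10.9, 10.9 and 14.3 in WT eggs. The groups did not overlap, and H1f0 fell by 0.73 on the log2 scale in WT (limma adjusted p = 0.000458) and by 0.91 in cKO (adjusted p = 0.00113). Among replication-dependent linker genes, Hist1h1a went the other way. Its FPKM was 17.2, 15.5, 16.6 and 18.5 in WT GV libraries, 17.7, 19.6, 16.9 and 25.8 in cKO GV libraries, 28.1, 38.8, 32.3 and 28.8 in WT eggs and 38.8, 46.1, 42.8 and 39.2 in cKO eggs. Eggs exceeded GV oocytes in both genotypes, with log2 fold changes of 0.91 and 1.08 (limma adjusted p = 2.68e-05 and 0.000100), and Hist1h1a was the 1 replication-dependent gene called as rising in WT. In eggs the cKO libraries reached from the level of the highest WT library upward, at a log2 fold change of 0.39 that missed the threshold (adjusted p = 0.0601). Hist1h1c was lower and more uneven, at means of 4.55 ± 2.30 FPKM in WT GV oocytes and 2.73 ± 0.416 in WT eggs. It was not called in WT maturation (log2 fold change -0.61, limma adjusted p = 0.0851). In cKO maturation it was called as falling (log2 fold change -0.85, limma adjusted p = 0.0340), from a mean of 4.52 to 2.63 FPKM.

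H3f3a and H3f3b encode the same protein, histone H3.3, which is deposited without DNA replication. H3f3b was at 522, 532, 615 and 502 FPKM in WT GV libraries and 1211, 1171, 1121 and 1408 in WT eggs, and at 579, 482, 500 and 503 in cKO GV libraries and 954, 1127, 1020 and 1131 in cKO eggs. Both genotypes rose without overlap, by log2 fold changes of 1.18 and 1.04 (limma adjusted p = 8.14e-07 and 1.11e-05). H3f3a had means of 260 ± 43.1 FPKM in WT GV oocytes, 626 ± 86.8 in WT eggs, 260 ± 57.5 in cKO GV oocytes and 713 ± 106 in cKO eggs, with log2 fold changes of 1.27 and 1.47 (adjusted p = 8.39e-06 and 6.07e-05). H3f3c, annotated as a processed pseudogene, had a mean of 7.74 FPKM in WT GV oocytes and 16.3 in WT eggs, and 73.8% of the 50-base words of its model are shared with another gene, most often H3f3a, so its level is uncertain. Neither H3.3 gene was called between genotypes in eggs, at -0.21 for H3f3b and 0.19 for H3f3a on the log2 scale (limma adjusted p = 0.156 and 0.378).

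H2A variants moved mostly downward. H2afx encodes H2A.X, the variant phosphorylated at DNA breaks. Its FPKM was 102, 87.5, 75.1 and 85.5 in WT GV libraries and 107, 83.8, 102 and 83.7 in cKO GV libraries. Egg libraries had 24.8, 26.2, 30.03 and 21.98 in WT and 77.9, 57.9, 60.2 and 43.3 in cKO. GV genotypes overlapped, the lowest cKO egg library was above the highest WT egg library, and all cKO eggs were below all cKO GV oocytes. WT eggs held 29.4% of the GV mean and cKO eggs 63.5%. On the log2 scale H2afx fell by 1.77 in WT (limma adjusted p = 1.73e-07) and by 0.68 in cKO (adjusted p = 0.00570). Between genotypes in eggs the log2 fold change was 1.19 ± 0.17 (adjusted p = 0.0180, higher in 4 of 4 libraries), and the interaction was 1.09 ± 0.22 (adjusted p = 0.0308). Over the leave-one-out refits the adjusted p in eggs went from 0.0107 to 0.0701, past the threshold without WT MII replicate 1, 3 or 4 (0.0701, 0.0528 and 0.0533), and without cKO MII replicate 3 it was 0.0224. The interaction had adjusted p between 0.00984 and 0.0658 in these refits and missed the threshold without WT GV replicate 1 or 4, cKO GV replicate 2, 3 or 4, or WT MII replicate 1 or 4.

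H2afz and H2afv encode the H2A.Z proteins, found at promoters. H2afv was at 13.5, 13.8, 16.7 and 17.3 FPKM in WT GV libraries and 3.20, 2.55, 2.96 and 4.39 in WT eggs, with 3.83, 5.21, 8.35 and 7.06 in cKO eggs. Its log2 fold change in WT was -2.25 ± 0.17 (limma adjusted p = 4.48e-07), and the cKO fall was -1.52 ± 0.24 (adjusted p = 0.000375). The egg genotypes overlapped in 1 library, and the log2 fold change of 0.87 missed the threshold (adjusted p = 0.0671). H2afz, at means of 29.98 ± 8.92 FPKM in WT GV oocytes and 23.7 ± 4.66 in WT eggs, was not called in either maturation (log2 fold changes of -0.31 and -0.48, limma adjusted p = 0.203 and 0.108). The macroH2A genes H2afy and H2afy2 and H2afj, given here after their values were seen, were at 1.60, 3.05 and 3.75 FPKM in WT GV oocytes and 0.569, 0.796 and 2.00 in WT eggs, and all 3 fell in both genotypes. H2afy and H2afy2 averaged below 1 FPKM in WT eggs, and H2afy also in cKO eggs (0.609). There they passed the filter only through the GV libraries.

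Among replication-dependent core histones, Hist1h2bc was the highest. Its FPKM was 17.0, 15.7, 20.8 and 15.6 in WT GV libraries and 16.7, 14.3, 16.3 and 22.2 in cKO GV libraries. Egg libraries had 10.6, 10.3, 8.94 and 9.21 in WT and 25.4, 17.8, 20.3 and 14.9 in cKO. WT eggs were below every other library, and cKO eggs overlapped the GV oocytes. In WT it fell by 0.82 on the log2 scale (limma adjusted p = 7.33e-05), and in cKO the log2 change was 0.16 (adjusted p = 0.441). The genotypes differed in eggs by 0.98 ± 0.15 (adjusted p = 0.0195, higher in 4 of 4 libraries), and the interaction was 0.98 ± 0.23 (adjusted p = 0.0434). The egg call was lost without WT MII replicate 1, 3 or 4 (limma adjusted p = 0.0701, 0.0576 and 0.0570). The interaction call held without cKO GV replicate 4, cKO MII replicate 2 or cKO MII replicate 4 and was lost without each of the other libraries, with adjusted p from 0.0213 to 0.0893 over all of them. It was also lost with 1 FPKM added (0.0537), no filter (0.0626) or no intensity trend (0.0513), in a range of 0.0329 to 0.0685 over the settings tried.

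Hist1h4h, an H4 gene, and Hist3h2ba, an H2B gene outside the large cluster, were low. Hist1h4h was at 3.15, 4.59, 7.17 and 5.73 FPKM in WT GV libraries, 4.49, 2.98, 3.23 and 6.77 in cKO GV libraries, 1.67, 1.10, 0.803 and 0.697 in WT eggs and 3.92, 2.70, 3.42 and 1.92 in cKO eggs. Hist3h2ba was at 8.19, 7.57, 5.97 and 8.28 in WT GV libraries, 12.2, 7.39, 7.88 and 8.23 in cKO GV libraries, 1.05, 2.22, 1.97 and 1.97 in WT eggs and 2.80, 3.56, 6.43 and 4.45 in cKO eggs. For both genes every cKO egg library lay above every WT egg library, with little room between the nearest. Hist1h4h fell by 2.08 on the log2 scale in WT (limma adjusted p = 2.22e-05) and had a log2 fold change of -0.52 in cKO (adjusted p = 0.145), and in eggs the genotypes differed by 1.31 (adjusted p = 0.0299, higher in 4 of 4 libraries). Hist3h2ba fell by 2.101 in WT (adjusted p = 7.93e-06) and by 1.09 in cKO (adjusted p = 0.00424), and in eggs the genotypes differed by 1.25 (adjusted p = 0.0426, higher in 4 of 4 libraries). Their interaction terms, 1.56 and 1.01 on the log2 scale, missed the threshold (limma adjusted p = 0.0780 and 0.163). The egg call of Hist1h4h held without cKO MII replicate 2 or 4 and was lost without cKO MII replicate 1 or 3 or any WT MII replicate, with adjusted p of 0.0249 to 0.0736 in limma over the libraries left out. That of Hist3h2ba held without cKO MII replicate 2 alone and was lost without each of the other 7 egg libraries, with adjusted p of 0.0413 to 0.104. It was also lost with no filter (0.0610) and with no intensity trend (0.0515), in a range of 0.00536 to 0.0610 over the settings tried. Without cKO MII replicate 2 the interaction of Hist1h4h passed as well (adjusted p = 0.0494). The maturation and egg comparisons share the WT egg libraries, so low values there enter both.

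**Figure D3:**
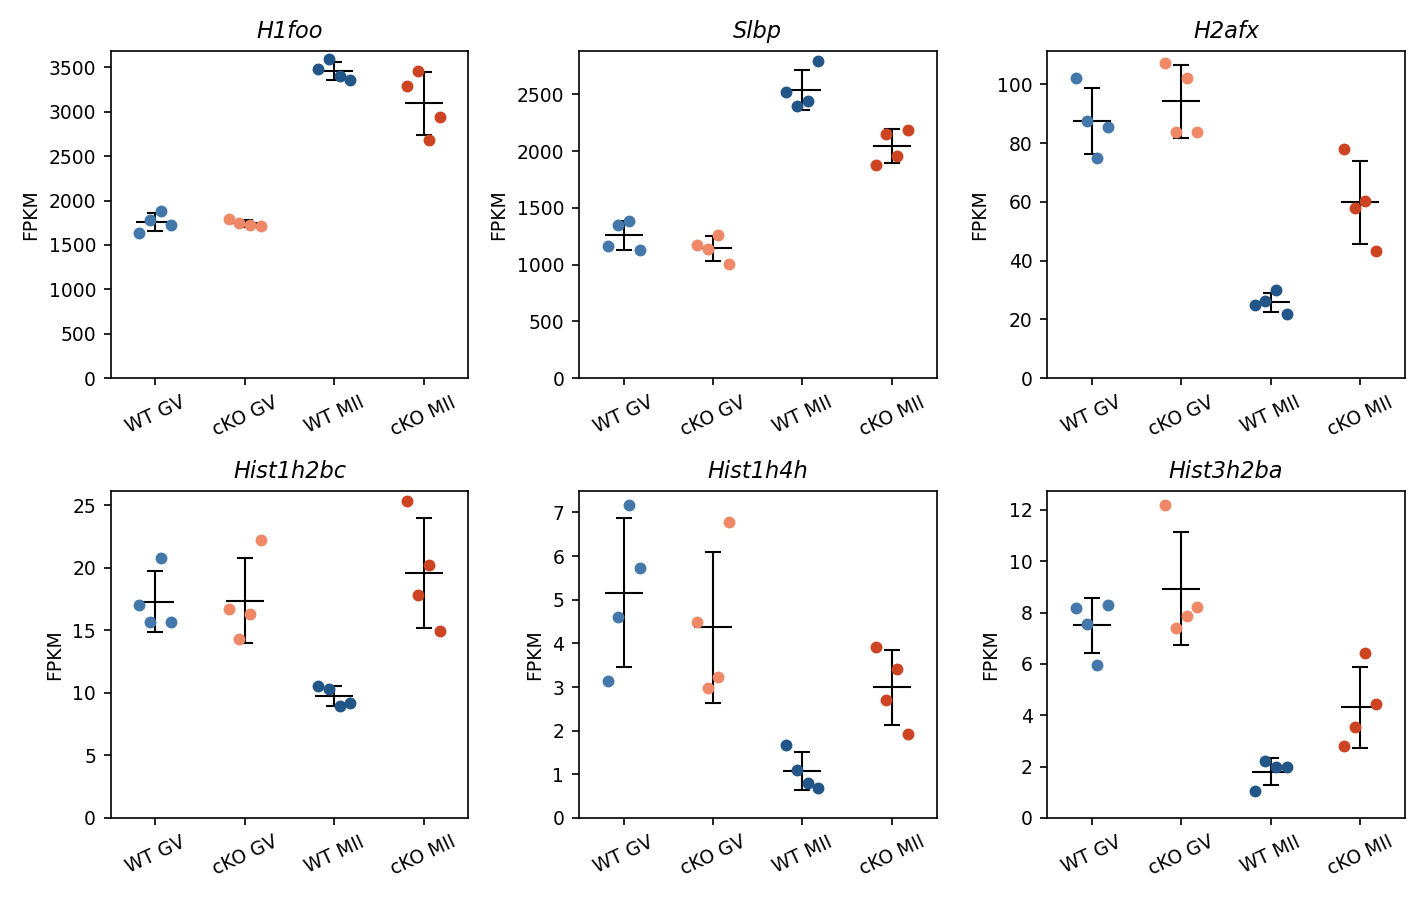
FPKM per library (y axes, starting at 0) of H1foo, Slbp, H2afx, Hist1h2bc, Hist1h4h and Hist3h2ba in the 4 groups, with 1 point per library and bars for the group mean ± SD. H2afx sits at 21.98 to 30.03 in WT eggs and 43.3 to 77.9 in cKO eggs, while H1foo and Slbp are higher in eggs than in GV oocytes.

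The other replication-dependent genes named by level were Hist2h3c1, Hist1h4c and Hist1h3g. Hist2h3c1 had means of 8.55 ± 1.74 FPKM in WT GV oocytes, 8.11 ± 1.04 in WT eggs and 10.8 ± 1.23 in cKO eggs, and was not called in any comparison. Its cKO egg libraries, at 9.85 to 12.5 FPKM, were all above the WT egg libraries, at 6.63 to 8.86, with a log2 fold change of 0.42, a 95% interval of 0.13 to 0.70 and an adjusted p of 0.0717 in limma. Hist1h4c was at 6.43 ± 1.89, 4.84 ± 1.77 and 7.13 ± 0.669 FPKM in the same groups and was not called either. Hist1h3g fell by 0.96 on the log2 scale in WT (limma adjusted p = 0.00444), from 3.00 ± 0.444 to 1.57 ± 0.698 FPKM, and Hist1h4a by 1.70 (adjusted p = 4.89e-06), from 3.32 ± 0.852 to 0.444 ± 0.236 FPKM. Since values below 1 FPKM were set to 1, the fold change of Hist1h4a understates the difference in FPKM. Hist1h4a was below 1 FPKM in every WT egg library, so it passed the filter only through the GV group.

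Of the testis variants, histones known from sperm precursors, Hist1h2aa, encoding TH2A, was abundant, while the linker gene Hist1h1t was listed at 0 in every library but cKO GV replicate 3, at 0.0869 FPKM. The values of Hist1h2aa are given after they were seen: 108, 123, 156 and 109 FPKM in WT GV libraries, 185, 102, 134 and 140 in cKO GV libraries, 189, 190, 163 and 201 in WT eggs and 176, 213, 193 and 249 in cKO eggs. WT eggs were all above WT GV oocytes while the cKO groups overlapped, and Hist1h2aa rose by 0.59 on the log2 scale in WT (limma adjusted p = 0.000959) and also by 0.59 in cKO (adjusted p = 0.0138). Hist1h2ba, encoding TH2B and also named after its values were seen, was between 0.302 and 2.41 FPKM in the 16 libraries. It rose in cKO maturation, from a mean of 0.656 to 1.73 FPKM (log2 fold change 0.64, limma adjusted p = 0.0479), and was not called in WT (0.23, adjusted p = 0.453). With a floor of 0.1 FPKM the cKO log2 fold change was 1.47 (limma adjusted p = 0.0115). Its cKO GV mean was below the filter of 1 FPKM, so it was tested there only through the eggs. The cKO call of Hist1h2ba held without cKO MII replicate 1 (adjusted p = 0.00376) and was lost without each of the other 7 cKO libraries, at up to 0.124 in limma, and with no filter (0.0583) or all 16 libraries in one fit (0.0553).

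Slbp encodes the stem-loop binding protein that histone mRNAs need for processing and translation. Its FPKM was 1163, 1351, 1385 and 1130 in WT GV libraries and 1173, 1141, 1258 and 1001 in cKO GV libraries. Egg libraries had 2524, 2394, 2440 and 2795 in WT and 1882, 2153, 1953 and 2186 in cKO. Eggs were above GV oocytes in both genotypes, and all cKO egg libraries were below all WT egg libraries. Slbp rose in WT by a log2 fold change of 1.02 ± 0.09 (limma adjusted p = 2.38e-06) and in cKO by 0.84 ± 0.10 (adjusted p = 4.69e-05). In eggs the genotypes differed by -0.31 ± 0.08 (adjusted p = 0.0478, lower in 4 of 4 libraries), and the interaction was -0.18 (adjusted p = 0.529). The egg call was near the threshold: with rescaled libraries the adjusted p was 0.0543, and of the leave-one-out refits only that without cKO MII replicate 2 kept it, with a range of 0.0464 to 0.126. Over the other settings tried the adjusted p was 0.0306 to 0.0745, and the call was also lost with no filter (0.0716), with no intensity trend (0.0745) and with the replicate number as a block.

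Npm2 encodes nucleoplasmin 2, an oocyte chaperone for histones. It was at 284, 250, 290 and 303 FPKM in WT GV libraries and 123, 143, 126 and 129 in WT eggs, and at 246, 317, 260 and 290 in cKO GV libraries and 140, 134, 175 and 145 in cKO eggs. It went opposite to Slbp, falling without overlap by 1.11 on the log2 scale in WT (limma adjusted p = 4.27e-07) and by 0.90 in cKO (adjusted p = 8.33e-05). Between genotypes in eggs the log2 fold change was 0.19, with a 95% interval of -0.02 to 0.40.

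The ends of the annotated transcripts bear on what oligo-dT priming can capture, so they were read from GENCODE M21 (GRCm38, the same assembly as mm10), in which all 69 members had a gene. The longest coding model was used, 1 per gene. A histone stem-loop, searched by its base pairing on the sense strand, stood within the last 150 bases of 13 of 48 replication-dependent genes and 0 of 11 variant genes with a coding model, against 0.257% of 58797 coding transcripts. Anywhere after the stop codon, a window chosen after seeing the data, it was found in 32 of 48 and in 1 of 11, H2afx. A poly(A) signal, AATAAA or ATTAAA in the last 40 bases, stood in 13 of the 48 and 9 of the 11, against 48.7% of all coding transcripts. The cytoplasmic polyadenylation elements TTTTAT or TTTTAAT, in the last 100 bases, stood in 6 and 3, against 12.7%, the 3 variants being H1foo, H2afv and H2afx.

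Levels are given by the form of the model as a description, with limits set after the values were seen and no test. In 19 replication-dependent genes the model ran 120 or more bases past the stem-loop, and 8 of them averaged 1 FPKM or more over the 16 libraries, with a median of 0.716. In 13 genes it ended sooner after the stem-loop, and 4 reached 1 FPKM, with a median of 0.233. In 12 genes without a stem-loop the model stopped within 60 bases of the stop codon, so that no 3′ end could be read, and 1 of them, Hist1h1a, reached 1 FPKM, with a median of 0.0579. The remaining 4, with longer models and a poly(A) signal in 3 of them, had the lowest median, 0.0149, and 1 gene past 1 FPKM, Hist1h2bc, whose model is 1156 bases long and showed neither the stem-loop nor the poly(A) signal in these windows. The highest replication-dependent genes, Hist1h1a at 27.7 and Hist1h2bc at 16.0 FPKM over the 16 libraries, thus had no counted stem-loop. Over all 48 the median was 0.240 FPKM, and over the 11 variants 15.7 FPKM. Whether the deposited values were computed on models of this form is not known, and the annotation used upstream is not given in the sources used here.

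The elements of the members that differed between genotypes in eggs, and of others for comparison, are shown 5′ to 3′ with the stem-loop or the poly(A) signal in capitals. All lie after the stop codon, in the 3′ untranslated region.
H2afx stem-loop (chr9:44335233-44335262, plus strand): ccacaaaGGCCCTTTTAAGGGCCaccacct
H2afx poly(A) signal (chr9:44336031-44336060, plus strand): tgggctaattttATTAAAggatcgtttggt
Hist1h4h stem-loop (chr13:23531451-23531480, plus strand): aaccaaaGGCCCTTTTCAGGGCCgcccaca
Hist1h4h poly(A) signal (chr13:23531476-23531505, plus strand): ccacattttcttATTAAAagagcgaacatg
Hist3h2ba stem-loop (chr11:58949342-58949371, plus strand): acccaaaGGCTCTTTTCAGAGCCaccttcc
Hist3h2ba poly(A) signal (chr11:58949495-58949524, plus strand): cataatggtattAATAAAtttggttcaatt
Hist1h3g stem-loop (chr13:23535882-23535911, plus strand): ctttaaaGGCTCTTCTTAGAGCCacccatc
Hist1h1a model end (chr13:23764377-23764406, plus strand): tataaataacccaacGGCTCTTTTCAGAGC
H1foo poly(A) signal (chr6:115950202-115950231, plus strand): tcataatttatcAATAAAgactttgtattc
Slbp poly(A) signal (chr5:33640064-33640093, minus strand): gataattgcaaaAATAAAgaccctttaact

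Of the members higher in cKO eggs, Hist1h2bc showed neither the stem-loop nor the poly(A) signal in the windows searched. H2afx, Hist1h4h and Hist3h2ba each had both elements in 1 model. So did Hist2h3c1 and Hist1h1c, which were not called between genotypes, and a poly(A) signal stood in 2 of the 13 replication-dependent genes whose model ended within 120 bases of the stem-loop and in 8 of the 19 that ran further. The stem-loop began 46 bases after the stop codon in H2afx and was followed by 822 bases, in Hist3h2ba by 169 and in Hist1h4h by 46. In H2afx the first letters of the poly(A) signal are also part of a TTTTAT element. Hist1h1a, which rose in maturation, ended in the annotation within the stem-loop, after 15 of its bases, so its match is incomplete and was not counted. Hist1h3g had the stem-loop 47 bases before the end and no poly(A) signal in the window. H1foo and Slbp had a poly(A) signal and no stem-loop. A match is a description of the letters and does not show which end the mRNAs in these libraries had.

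Many members share stretches of sequence with other genes. Of the 69 members, 42 lie on chromosome 13. The share of 50-base words that a model has in common with another gene had a median of 49.6% over the 48 replication-dependent genes, with 23 above 50%, and of 8.76% over the 11 variants. It also counts gene models that overlap at the same place and matches on the opposite strand, so it does not measure the likeness of copies alone. By gene, the values were as follows. It was 0% for H1foo, Hist1h1a and Npm2, 9.66% for H2afx, 17.99% for Slbp, 22.1% for Hist3h2ba, 30.6% for Hist1h2bc and 45.8% for Hist1h4h. It was 69.6% for H2afz and 100% for Hist2h3c1, most often with Gm20634. How reads that fit several genes were treated is not given in the sources used here. Values of Hist1h4h, Hist2h3c1, H2afz, H3f3a and the other shared genes are therefore uncertain between genes.

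Other genes that handle histones changed in both directions. Of 36 histone chaperones and deposition factors listed, 35 were in the table, in 40 entries. In WT maturation 33 entries were tested, and 15 rose and 8 fell, where 26.1% of all entries rose and 52.4% fell, with a median log2 fold change of 0.16 against -0.44 over all entries. The largest rises were of Supt16, a subunit of the FACT complex, from 35.0 ± 5.29 to 89.7 ± 1.21 FPKM, Atrx, which works with Daxx in placing H3.3, from 38.3 ± 5.55 to 88.1 ± 7.12, and Rbbp7, a histone-binding subunit of several complexes, from 1496 ± 122 to 3369 ± 156. The largest falls were of Chaf1b, of the replication-coupled assembly factor CAF-1, from 18.9 ± 0.472 to 1.58 ± 0.280 FPKM, Znhit1, of the complex that places H2A.Z, from 3.70 ± 0.584 to 0.377 ± 0.208, and the histone importin Ipo4, from 3.22 ± 0.521 to 0.969 ± 0.261. In cKO maturation 14 rose and 10 fell of 33, where 23% and 51% of all entries did, with a median of 0.04 against -0.42 over all entries.

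Between genotypes, limma called 0 of 33 chaperone entries in GV oocytes, where 0.0994% of all entries were higher and 0.0181% lower, and 0 of 33 in the interaction, where 1.07% were positive and 0.188% negative. At an unadjusted p under 0.05, 1 was higher and 0 lower in GV oocytes, against 7.62% and 3.07% of all entries, and 2 were positive and 2 negative in the interaction, against 12.7% and 5.03%. In eggs it called 0 higher and 1 lower of 32, where 6.53% and 1.49% of all entries were, and 4 and 5 at an unadjusted p under 0.05, where 20.6% and 8.80% were, with a median near 0 against 0.07 over all entries. The lower one was Asf1a, a chaperone of H3 and H4, at 63.0, 58.1, 50.9 and 57.9 FPKM in WT eggs and 41.1, 49.6, 39.6 and 46.7 in cKO eggs. Every cKO egg library was below every WT egg library, at a log2 fold change of -0.38 ± 0.10 (limma adjusted p = 0.0462), and the call held without cKO MII replicate 2 and was lost without each of the other 7 egg libraries, with adjusted p from 0.0275 to 0.131. It was also lost with rescaled libraries (0.0506), no filter (0.0583) or no intensity trend (0.0699), in a range of 0.0126 to 0.0708 over the settings tried. Chaf1b, at 1.19, 1.81, 1.58 and 1.75 FPKM in WT eggs and 2.31, 2.46, 8.72 and 3.96 in cKO eggs, missed the threshold (limma adjusted p = 0.0744), with cKO MII replicate 3 the highest.

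Of 32 factors of histone mRNA 3′ end formation and decay listed, 31 were in the table, in 33 entries. In WT maturation 28 entries were tested, and 12 rose and 12 fell, where 26.1% and 52.4% of all entries did, with a median of -0.21 against -0.44 over all entries. Among those that rose were the Sm proteins Snrpe, from 28.0 ± 8.57 to 118 ± 12.7 FPKM, and Snrpg, from 58.7 ± 8.42 to 174 ± 22.7, and the cleavage scaffold Sympk, from 0.755 ± 0.189 to 3.01 ± 0.617. Among those that fell were Lsm10, a protein particular to the U7 particle that directs histone mRNA cleavage, from 309 ± 55.4 to 39.5 ± 4.14 FPKM, Zfp473, which acts with the same particle, from 21.2 ± 5.04 to 2.97 ± 0.338, and Snrpb, from 12.6 ± 1.95 to 1.37 ± 0.250. In cKO maturation 11 rose and 12 fell of 28, where 23% and 51% of all entries did, with a median of -0.22 against -0.42. Between genotypes limma called 0 of 29 in GV oocytes, where 2 were higher and 0 lower at an unadjusted p under 0.05, 0 of 25 in eggs, where 4 were higher and 4 lower, and 0 of 28 in the interaction, where 2 were positive and 3 negative. Over all entries limma called 0.0994% higher and 0.0181% lower in GV oocytes, 6.53% and 1.49% in eggs, and 1.07% and 0.188% positive and negative in the interaction. At an unadjusted p under 0.05 these shares were 7.62% and 3.07%, 20.6% and 8.80%, and 12.7% and 5.03%. Lsm10 was at 37.9, 41.3, 34.7 and 44.2 FPKM in WT eggs and 47.6, 47.6, 139 and 87.2 in cKO eggs, without overlap, and missed the threshold (limma adjusted p = 0.106).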

How the data were processed

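Values are the FPKM deposited by the authors for 16 Smart-seq2 libraries. The submitters' processing notes name TopHat2 2.1.1, Cufflinks 2.2.1 and the mm10 genome. The annotation and the handling of reads with several matches are not given in the sources used here. FPKM below 1 was set to 1, log2 was taken, and entries averaging 1 FPKM or more in the libraries of a fit were tested in limma 3.58.1 (R 4.3.3) with an intensity trend and Benjamini-Hochberg adjustment over all of them. Each comparison of 2 groups used its own 8 libraries, and the interaction used all 16. An entry averaging below 1 FPKM in 1 group could pass this filter through the other. Among named genes, Hist1h4a, Hist1h4i, Hist1h2bk, Hist1h2ac, Hist1h3e, H2afy, H2afy2, Hist1h2ba, Znhit1, Ipo4 and Sympk did so in a maturation comparison. Sums, 3′ ends (GENCODE M21, GRCm38) and figures were made in Python 3.11.15. Named genes were H1foo, Slbp, Npm2, variants with a group mean of at least 10 FPKM, the 8 highest replication-dependent genes, members called between genotypes, the 5 largest changes in each direction in WT maturation, and the 3 largest of each list. Alternatives were other floors, filters, scalings, fits and libraries left out. The members and lists were chosen with earlier results of these data known.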

Additional observations from a re-analysis of the deposited data

Results flagged for a closer look

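In WT eggs, replicate 2 stood apart from the other 3 libraries in the summed level of the replication-dependent genes, at 82.7 FPKM. In cKO eggs, replicate 2 stood apart in the level of Hist1h3g, at 0.796 FPKM. Both were found with Dixon's test over 84 groups of 4 libraries, and chance alone picks out about 1 in 20 groups. The change from GV to MII differed between cKO and WT for H2afx, by 1.09 on the log2 scale, and for Hist1h2bc, by 0.98, both by the interaction term in limma. Neither call held in every leave-one-out refit, as given above. That of Hist1h2bc was also lost with 1 FPKM added, no filter, no intensity trend or the replicate number as a block.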

How the results depend on the processing

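Of 664 counts and ratios recomputed, 584 stayed within 1.5 times the reported count or within the spread of the reported ratio and 80 moved; of 2854 refits of named genes, 2756 kept their side of the threshold, 87 lost the call, 11 gained it and 0 reversed. The cause of these moves was not tested. Under the 3-fold rule, members called higher and lower were 0 and 5 in WT maturation (112 and 2315 of 10475 entries), 0 and 2 in cKO maturation (92 and 1844 of 10748), and 0 and 0 in eggs (167 and 2 of 9492); chaperones were 0 and 2 in WT and 0 and 2 in cKO maturation, with 0 lower in eggs; 3′ end factors were 2 and 5 in WT and 3 and 6 in cKO maturation. With a mean of at least 5 FPKM, which left 15, 16 and 14 members tested in WT maturation, cKO maturation and eggs, 5 members fell in WT, where 3123 of 6241 entries did, 5 fell in cKO, where 3136 of 6417 did, and 2 were higher in eggs, where 572 of 5459 were. Under the same filter, 5 chaperones fell in WT maturation and 1 was higher in eggs, and 7 3′ end factors fell in cKO maturation. With all 16 libraries in one fit, 1 member was higher in cKO GV oocytes, and 1 chaperone and 2 3′ end factors were higher in cKO eggs, while the calls over all entries went from 11 to 124 higher in GV oocytes and from 620 to 1328 in eggs. With median-ratio rescaling, no filter or no intensity trend, 0 members and 0 chaperones were lower in eggs. Over all entries 168, 105 and 86 were lower in these fits, against 141 in the main one. With 1 FPKM added, no filter or no trend, 1 member had a positive interaction, where 75, 91 and 97 entries did, against 114. Without Hist1h1a, the replication-dependent sum had ratios of 0.530 for WT MII to GV, 0.766 for cKO MII to GV and 1.58 for cKO to WT eggs. Leaving out 1 library at a time gave 9 to 15 members falling in cKO maturation, 0 to 4 higher and 0 to 1 lower in eggs, 0 to 3 positive and 0 to 1 negative interactions, and a variant sum ratio of 1.95 to 2.04 for WT MII to GV; for chaperones, 0 to 1 higher and 0 to 1 lower in eggs and 0 to 1 positive interactions; for 3′ end factors, 0 to 1 higher in eggs and 0 to 1 negative interactions. Over all entries these leave-one-out refits gave 5195 to 5511 falling in cKO maturation, and 3 to 1024 higher and 0 to 136 lower in eggs. Interactions over all entries ran from 37 to 605 positive and from 4 to 46 negative. Counts for both lists of other genes were added after seeing the data. Near 1 FPKM, where 1 fragment on 500 bases is worth up to 0.190 FPKM, depth limits the values.

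Replicate numbers did not pair libraries: over 16 pairs r ran from -0.496 to 0.285, and 1 of 16 libraries correlated best with its own number. With the replicate number as a block, 3 members were higher and 0 lower in eggs, where 101 and 7 of 9492 entries were, 0 chaperones were lower in eggs, and 1 member had a positive interaction, where 53 of 10615 entries did. In that fit the egg calls of Hist3h2ba, Slbp and Asf1a (adjusted p = 0.0502, 0.0720 and 0.0708 in limma) and the interaction of Hist1h2bc (0.0685) missed the threshold, as did the rise of Hist1h2ba in cKO maturation (0.0770) and the egg calls of Zp3 and Figla (0.0502 and 0.0763) and the interaction of Figla (0.0686), all 4 read after seeing the data.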
